A study of Caenorhabditis elegans with 21 samples.

Results

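Troponin and tropomyosin genes of striated and pharyngeal muscle were followed in poly(A) RNA from whole *Caenorhabditis elegans*. The set held 10 genes, defined by the proteins they encode, out of 45461 genes in the deposited count table, and it was put together with earlier results of these data known. They were the tropomyosin gene *lev-11*, the troponin I genes *unc-27*, *tni-1*, *tni-3* and *tni-4*, the troponin T genes *tnt-2*, *tnt-3* and *mup-2*, and the troponin C genes *pat-10* and *tnc-2*. All 10 were in the table, and all 10 passed the filter on low counts. The libraries came from 3 samples of *hpl-2*(*tm1489*) animals and 2 samples of wild-type N2 (Bristol) animals, all grown at 20°C and described in the study as biological replicates. The mutant strain carries a deletion in the gene for HPL-2, a chromatin protein of the heterochromatin protein 1 family, and was compared with N2 to ask how transcript levels depend on this protein. The sample labels describe the mutant animals as L4 larvae and the N2 animals as young adults, whereas the methods of the study give L4 for both, so that genotype and stage cannot be told apart here. In RNA from whole animals, fewer muscle cells and less of a transcript per muscle cell cannot be told apart either.

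Thin filaments of muscle are built from actin, along which tropomyosin lies as a continuous coiled coil. At rest, tropomyosin and the troponin complex keep myosin from the filament. Troponin T ties the complex to tropomyosin, troponin I is the inhibitory subunit, and troponin C binds calcium and releases the inhibition, which starts contraction. In *C. elegans*, *lev-11* is the only tropomyosin gene and gives rise to several isoforms, whereas the troponin subunits are spread over small gene families. The genes *tni-4* and *tnc-2*, and the further troponin T gene *tnt-4*, are known for their expression in the pharynx, the feeding organ. The other members are known from body wall muscle, which moves the animal, and from the small muscles of egg laying and defecation.

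The counts on genes came to between 66490671 and 80724052 in N2 and between 95252804 and 114718047 in *hpl-2*(*tm1489*). The targeted gene itself, *hpl-2*, was counted in every library, at 38.8 CPM (the gene's counts relative to the TMM-normalized library size) on average in N2 and 29.0 in the mutant. Its log2 fold change of -0.42 (standard error 0.26) did not pass the threshold (edgeR adjusted p = 0.192), and a count per gene does not separate the deleted part from the rest. Genes were taken as changed where the quasi-likelihood test of edgeR gave a Benjamini-Hochberg adjusted p below 0.1 among 17498 genes tested. Of the tested genes, 27.6% were called lower in *hpl-2*(*tm1489*) than in N2 and 33.9% higher, and the median log2 fold change was 0.16.

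Of the 10 troponin and tropomyosin genes, 8 were lower in *hpl-2*(*tm1489*) than in N2 and none was called higher, nor was any higher at an unadjusted p under 0.05 or with DESeq2. The tropomyosin gene, all 4 troponin I genes and all 3 troponin T genes were lower, whereas neither troponin C gene passed the test in either direction. Over the 10 genes, the median log2 fold change was -1.24, between extremes of -2.63 and 0.23. In 8 of the 10 the groups did not overlap, and in these each mutant library was lower than either N2 library. Of all tested genes, 72% did not overlap, a share that counts both directions. The share with every mutant library below N2 was not tallied, so the 8 of 10 is not read as a result about these genes. Together the 10 genes took 0.779% and 0.821% of all counts in the N2 libraries and 0.434% to 0.631% in *hpl-2*(*tm1489*). Their summed level was 7822 and 10143 CPM in N2 and between 4530 and 5439 CPM in the mutant. A large part of these sums was *pat-10*, which was not called, at 2539 and 2867 CPM in N2 and 2026 to 3136 CPM in the mutant.

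**Figure D1:**
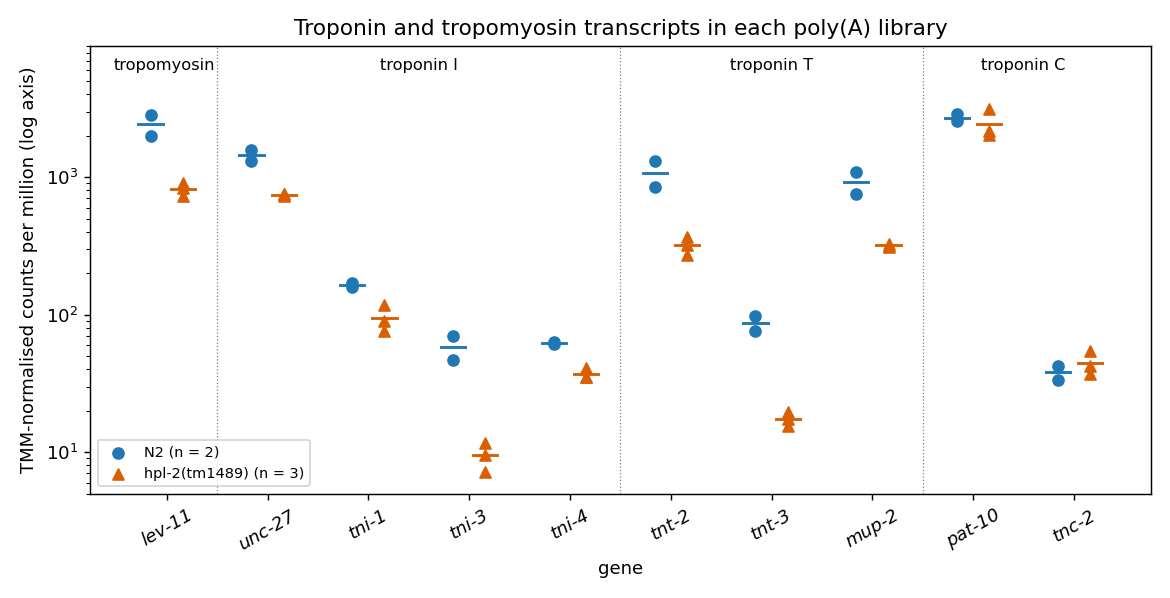
TMM-normalised CPM of each of the 10 genes (log axis) in the 2 N2 libraries (circles) and the 3 *hpl-2*(*tm1489*) libraries (triangles), with horizontal lines at the group means. The groups overlap only for *pat-10* and *tnc-2*, and the widest gap is that of *tni-3*, at 47.0 and 70.0 CPM in N2 against 7.18 to 11.7 in the mutant.

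The tropomyosin gene *lev-11* was counted at 1996 and 2851 CPM in N2 and at 830, 734 and 903 CPM in replicates 1, 2 and 3 of the mutant. The groups did not overlap, and the higher N2 value was that of replicate 2. The level of *lev-11* was 2.95-fold lower in the mutant (log2 fold change -1.56, standard error 0.27, adjusted p = 0.00102). A single count per gene sums the muscle and nonmuscle isoforms of tropomyosin, so a shift between isoforms would not show in it.

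Among the troponin I genes, *unc-27*, whose loss leaves animals slow and uncoordinated, was counted at 1307 and 1584 CPM in N2. In *hpl-2*(*tm1489*) it stood at 756, 752 and 734 CPM, a narrow spread that lay entirely below N2. Its log2 fold change was -0.95 (standard error 0.24, adjusted p = 0.00850). The gene *tni-1* was counted at 158 and 170 CPM in N2 and at 89.3, 117 and 75.8 CPM in the mutant, with a log2 fold change of -0.81 (standard error 0.27, adjusted p = 0.0290). Its mutant libraries spread more widely than those of *unc-27*, but all lay below N2. The pharyngeal gene *tni-4* changed least among the genes that were called, from 61.7 and 63.3 CPM to 35.4, 40.6 and 35.1 CPM. Its log2 fold change was -0.75 (standard error 0.25, adjusted p = 0.0296).

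The largest decrease of the set was in *tni-3*, which was counted at 47.0 and 70.0 CPM in N2 and at 9.52, 7.18 and 11.7 CPM in *hpl-2*(*tm1489*). The groups were far apart, with N2 replicate 2 the highest library. The level of *tni-3* was 6.17-fold lower in the mutant (log2 fold change -2.63, standard error 0.32, adjusted p = 0.000163). The calls of *tni-1* and *tni-4* were lost with library size alone or *pmp-3* as the scaling and were kept with upper quartile scaling and with DESeq2. Without N2 replicate 2, *tni-1* was at -0.74 (adjusted p = 0.151) and *tni-4* at -0.72 (adjusted p = 0.148), folds close to those with all libraries. Without N2 replicate 1, *tni-1* kept its call at -0.85 (adjusted p = 0.0965), whereas *tni-4*, at -0.77, did not (adjusted p = 0.119).

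The troponin T genes fell together. The gene *mup-2*, first known from mutants with defective muscle position in embryos, went from 757 and 1091 CPM in N2 to 328, 311 and 317 CPM in the mutant (log2 fold change -1.54, standard error 0.26, adjusted p = 0.000954). The gene *tnt-2* went from 847 and 1305 CPM to 321, 272 and 365 CPM (log2 fold change -1.75, standard error 0.28, adjusted p = 0.000734). For both genes, N2 replicate 2 was the higher N2 library and the groups were well apart. The gene *tnt-3* was counted at 76.0 and 98.0 CPM in N2 and at 17.3, 15.6 and 19.7 CPM in the mutant. Its log2 fold change of -2.31 (standard error 0.27, adjusted p = 0.000142) was the largest of the class, a 4.96-fold lower level. The remaining gene with a troponin T symbol, *tnt-4*, which was not among the 10, was lower as well, from 49.2 and 44.7 CPM to 15.0, 12.4 and 11.3 CPM, with a log2 fold change of -1.86 (standard error 0.27, adjusted p = 0.000404).

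Neither troponin C gene was called. The body wall gene *pat-10*, needed for embryos to elongate past the point at which muscle starts to contract, was counted at 2539 and 2867 CPM in N2 and at 2170, 3136 and 2026 CPM in *hpl-2*(*tm1489*). Replicate 2 of the mutant was the highest of all 5 libraries and the other mutant libraries the lowest, so the groups overlapped. The log2 fold change of *pat-10* was -0.15 (standard error 0.28, 95% interval -0.77 to 0.48, adjusted p = 0.687). Its sign was positive when library size alone or *pmp-3* set the scaling. Without *hpl-2*(*tm1489*) replicate 2 it was -0.46 (adjusted p = 0.106), and without replicate 3 it was -0.02. After each library's trend with gene span was removed, it was -0.78 and passed the threshold (adjusted p = 0.0593).

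The pharyngeal troponin C gene *tnc-2* was counted at 33.5 and 42.6 CPM in N2 and at 36.7, 54.6 and 42.1 CPM in the mutant. As for *pat-10*, *hpl-2*(*tm1489*) replicate 2 was the highest of the libraries. The log2 fold change was 0.23 (standard error 0.29, 95% interval -0.43 to 0.88, adjusted p = 0.536), and it was negative, though not past the threshold, under upper quartile scaling, with gene span offsets and without *hpl-2*(*tm1489*) replicate 2. These intervals leave room for a change of either gene in either direction. That of *pat-10* reaches a decrease about as large as that of *tni-4*.

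**Figure D2:**
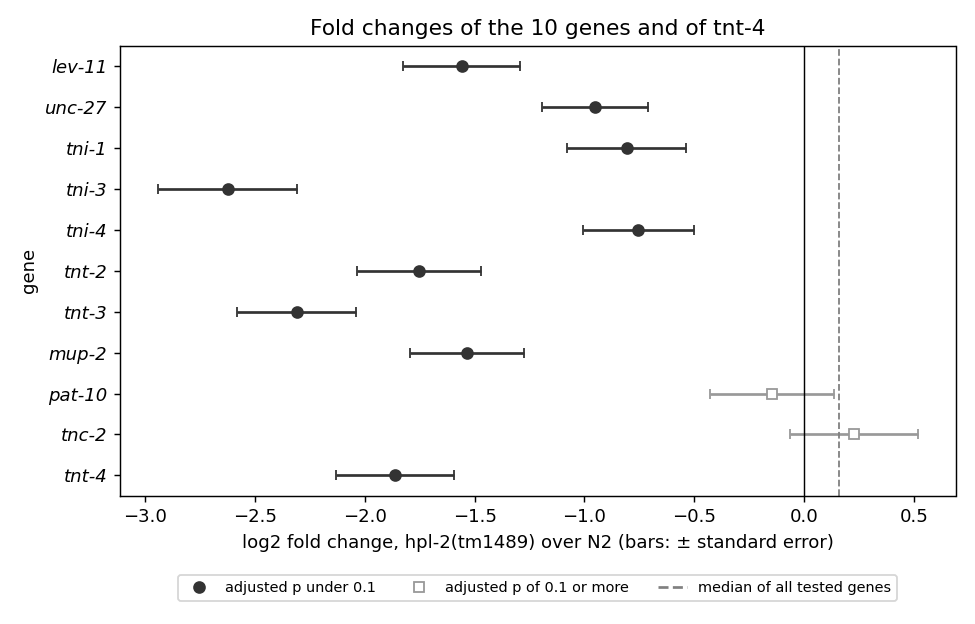
Log2 fold change of each of the 10 genes and of *tnt-4* in *hpl-2*(*tm1489*) relative to N2 (x axis), with bars for the standard error, filled circles for genes past an adjusted p of 0.1 and open squares for the others. The values run from -2.63 (*tni-3*) to 0.23 (*tnc-2*), the dashed line marks the median of all tested genes at 0.16, and the sign of both open squares depends on the scaling.

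To compare the classes without any scaling between libraries, their counts were set against each other within each library, a comparison chosen after the values had been seen. The ratio of troponin C to troponin T counts was 1.53 and 1.17 in N2, and in the mutant replicates 1, 2 and 3 it was 3.32, 5.34 and 2.95. Each mutant library was above either N2 library. An exact two-sided permutation test of 3 libraries against 2 cannot give a p below 0.1, so these ratios are given as a description. The ratio of troponin I to troponin T counts was 0.937 and 0.757 in N2 and 1.34, 1.53 and 1.22 in the mutant, again without overlap.

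The ratio of troponin C to troponin I counts was 1.63 and 1.54 in N2 and 2.48, 3.48 and 2.41 in *hpl-2*(*tm1489*), likewise without overlap. Tropomyosin and troponin T kept closer proportions, at 1.19 and 1.14 tropomyosin counts per troponin T count in N2 and 1.25, 1.23 and 1.29 in the mutant. These groups did not overlap either, but the means differed by only 0.0882. Such ratios still hold each library's trend with gene span. With gene span offsets, the log2 fold change was -0.99 for *lev-11*, -2.18 for *tnt-2*, -1.89 for *tnt-3* and -2.03 for *mup-2*. Under that setting tropomyosin thus fell less than troponin T, and *unc-27*, at -1.61, fell more than *lev-11*. Summed over its genes, the mean level of a class in *hpl-2*(*tm1489*) was 0.314 of that in N2 for troponin T, 0.339 for tropomyosin, 0.513 for troponin I and 0.908 for troponin C. These ratios compare genotypes and not the amounts of the gene products, since the counts were not corrected for transcript length.

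**Figure D3:**
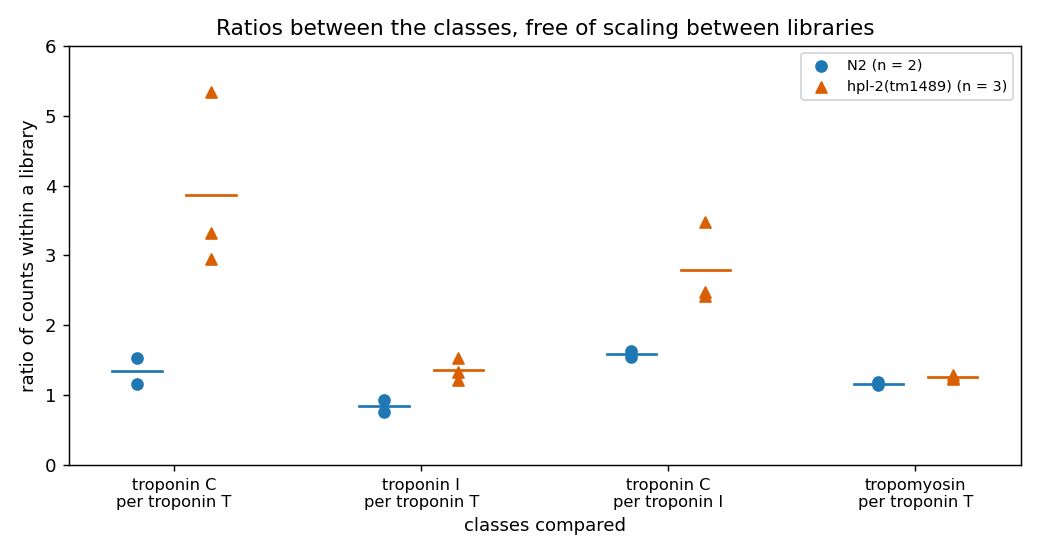
Ratios between the summed counts of 2 classes within each library (y axis), for the 2 N2 libraries (circles) and the 3 *hpl-2*(*tm1489*) libraries (triangles), with lines at the means. Troponin C per troponin T lies at 1.17 and 1.53 in N2 and between 2.95 and 5.34 in the mutant, whereas tropomyosin per troponin T lies between 1.14 and 1.29 in all 5 libraries.

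Within each class, the share of counts that fell on each gene was compared in the same way. Of the troponin I counts, *unc-27* held 83.0% and 83.9% in N2 and 84.9%, 82.1% and 85.7% in *hpl-2*(*tm1489*), and *tni-1* held 10.1% and 9.03% against 10.0%, 12.7% and 8.84%. For both, the groups overlapped. The share of *tni-3* was 2.99% and 3.71% in N2 and 1.07%, 0.783% and 1.37% in the mutant, so that every mutant library lay below N2. Every mutant library lay above N2 for *tni-4*, at 3.98%, 4.43% and 4.10% against 3.92% and 3.35%.

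Of the troponin T counts, *tnt-3* held 4.52% and 3.93% in N2 and 2.60%, 2.60% and 2.80% in *hpl-2*(*tm1489*), without overlap. The shares of *tnt-2* overlapped, at 50.4% and 52.3% in N2 and 48.2%, 45.4% and 52.1% in the mutant. Those of *mup-2* were 45.1% and 43.7% in N2 and 49.2%, 52.0% and 45.1% in the mutant, where the lowest mutant value and the higher N2 value were alike to the digits shown. Nearly all troponin C counts were from *pat-10*, and *tnc-2* held 1.30% and 1.46% in N2 and 1.66%, 1.71% and 2.04% in the mutant. Exact permutation tests of 8 such shares gave p = 0.1 at the lowest, the smallest possible here, and 0.2 after Benjamini-Hochberg adjustment, so none passed a threshold.

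**Figure D4:**
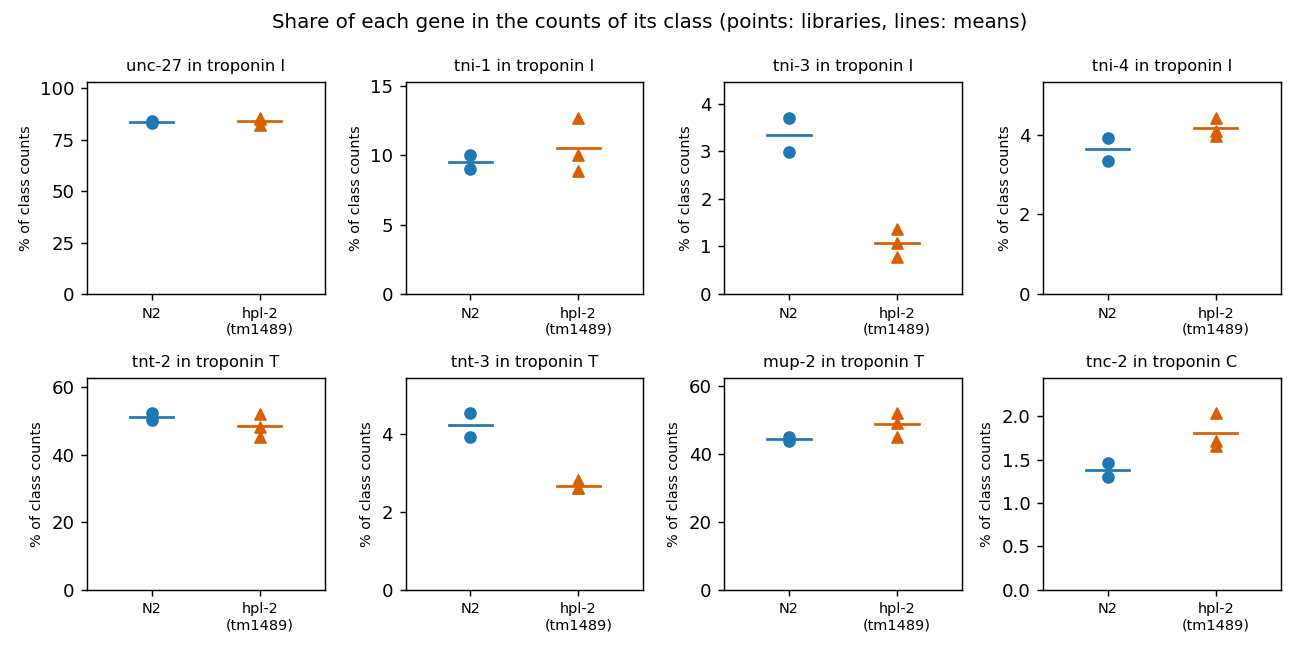
Share of each gene in the counts of its class (y axis, percent, each panel with its own scale from 0) in the 2 N2 libraries (circles) and the 3 *hpl-2*(*tm1489*) libraries (triangles), with lines at the means. The mean share of *tni-3* in troponin I counts is 3.35% in N2 and 1.07% in the mutant, and that of *tnt-3* in troponin T counts 4.23% and 2.67%, a difference that no permutation of 5 libraries can place under p = 0.1.

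Over the 5 libraries, log2 CPM values of the 10 genes correlated at between -0.462 and 0.999, with a median r of 0.903 over 45 pairs. The points share the genotype contrast and the scaling, so these values are a description only. The 5 genes outside the set, among 8822 that averaged 1000 counts or more per library, whose profile over the 5 libraries was nearest to the median profile of the 10 were *nac-2*, *ZK1058.9*, *rsbp-1*, *vha-15* and *F44B9.2*. They lay at a root mean square distance of 0.0392 to 0.0543 on the log2 scale, and their log2 fold changes ran from -1.30 to -1.23. The gene *vha-15* encodes a subunit of the vacuolar proton pump.

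Other thin filament genes, and the lists that follow, were read from the same fit. Each count is to be set beside the 27.6% of all tested genes called lower and the 33.9% called higher. Of 12 actin genes and actin-binding partners, 8 were called lower and none higher, with a median log2 fold change of -1.22. The largest decreases were in *act-4* (-2.07), an actin gene used in muscle, *atn-1* (-1.76), which encodes the alpha-actinin of dense bodies, and *act-3* (-1.63). The capping protein genes *cap-1* and *cap-2* were not called, at 0.25 and -0.11, nor was *unc-94*, the tropomodulin gene, at -0.31. The actin gene *act-2* was not called either, at -0.56 (edgeR adjusted p = 0.150), and its groups overlapped. Reads of the nearly identical actin genes could be split among them or dropped in unique mapping, so single actin genes are uncertain. Against *act-4*, the *lev-11* counts stood at 0.910 and 0.972 per count in N2 and at 1.30, 1.35 and 1.39 in *hpl-2*(*tm1489*).

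Of 11 genes for calcium entry, release and removal, which set the signal that troponin C reads, 7 were called lower and none higher, with a median log2 fold change of -1.32. The ryanodine receptor gene *unc-68*, the calcium release channel of muscle, was at -2.57, the calcium pump gene *sca-1* of the sarcoplasmic reticulum at -2.50 and the plasma membrane pump gene *mca-1* at -2.22. The calsequestrin gene *csq-1* was at -1.32 (adjusted p = 0.00206), and the channel gene *egl-19* at -1.90. The channel subunit genes *unc-36* and *ccb-1* were not called, at -0.35 and 0.47, nor were *itr-1* at 0.10 and *ncx-1* at -0.35. The 2 N2 libraries differed widely for some of these genes. They stood at 85.9 and 45.4 CPM for *unc-68*, against 9.70 to 12.1 CPM in the mutant, and at 123 and 30.4 CPM for *itr-1*.

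Genes of the thick filament and of body wall muscle identity were lower as well. Of 12 tested body wall muscle genes, 11 were called lower and none higher, with a median log2 fold change of -2.25. The myosin heavy chain gene *unc-54* was at -4.40, the giant protein gene *unc-22* at -3.58 and the paramyosin gene *unc-15* at -3.13. Set within each library, *lev-11* counts came to 0.616 and 0.484 per *unc-54* count in N2 and to 3.51, 5.62 and 3.21 in *hpl-2*(*tm1489*), a comparison chosen after the values had been seen. Per *unc-15* count they came to 1.37 and 1.17 in N2 and to 3.33, 5.71 and 3.12 in the mutant. In both ratios, every mutant library lay above N2. The body wall factor gene *hlh-1* had 0 counts in all 5 libraries and so gives no reading of either genotype. The gene *unc-120* of the same list was at -0.89 (edgeR adjusted p = 0.0196), a smaller decrease than the list's median. Of 6 pharyngeal muscle genes in the table, 4 were called lower, led by the myosin gene *myo-2* at -4.27, and 1 was called higher, the chloride channel gene *avr-15* at 1.39. The 4 included *tnt-4*, already given above beside the troponin T genes, and *ceh-22*, which had only 17 to 65 counts per library.

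Markers of muscle and intestine differed in sum between the genotypes without overlap, whereas those of neurons did not. Such a sum rests mostly on the highest genes of its list, so it is not the level of a tissue. In N2, *myo-2* held 149 and 233 CPM of the pharyngeal sum and *asp-1* 4085 and 5020 CPM of the intestine sum. The summed level of the body wall muscle list was 9702 and 15264 CPM in N2 and 2267 to 2632 CPM in the mutant, and that of the pharyngeal list 235 and 299.7 CPM against 47.1 to 52.4 CPM. The neuron list stood at 231 and 241 CPM in N2 and at 231 to 235 CPM in the mutant, and its median log2 fold change was 0.01. That median was the value of *snb-1*, which held 103 and 151 CPM in N2 and 136, 102 and 146 CPM in the mutant. The other genes of the list went both ways, and *unc-64*, at 0.58 and not called, was above N2 in every mutant library. Of its 7 genes, 2 were called lower, *unc-13* at -1.50 and *rab-3* at -0.71, against 27.6% of all tested genes. The intestine list stood at 6379 and 7583 CPM in N2 and at 3117 to 4392 CPM in the mutant, with 5 of 6 genes called lower, *pept-1* at -1.20 being the lowest. No marker of these lists apart from *hlh-1* was at 0.

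Genes known to vary with stage were among the lists. Of 8 epidermis and molt genes, 6 were called lower, led by *mlt-10* at -5.71, and their sum was 2178 and 3185 CPM in N2 and between 176 and 282 CPM in the mutant. All 3 adult collagen genes were called higher, with a sum of 511 and 592 CPM in N2 and between 1399 and 2257 CPM in the mutant, led by *col-7* at 2.55. They were thus higher in the animals that the sample labels call L4 larvae than in those called young adults. Of 8 germ line and oocyte genes, 5 were called higher, led by *puf-5* at 3.23, and 1 lower, *glh-1* at -0.67. The sum of this list was 1252 and 1838 CPM in N2 and ranged from 974 to 3352 CPM in the mutant, with *hpl-2*(*tm1489*) replicate 2 far below its fellow replicates for *puf-5*, at 10693 counts against 42003 and 39547. The part of stage, tissue make-up or germ line content in the levels of the troponin and tropomyosin genes was not tested.

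**Figure D5:**
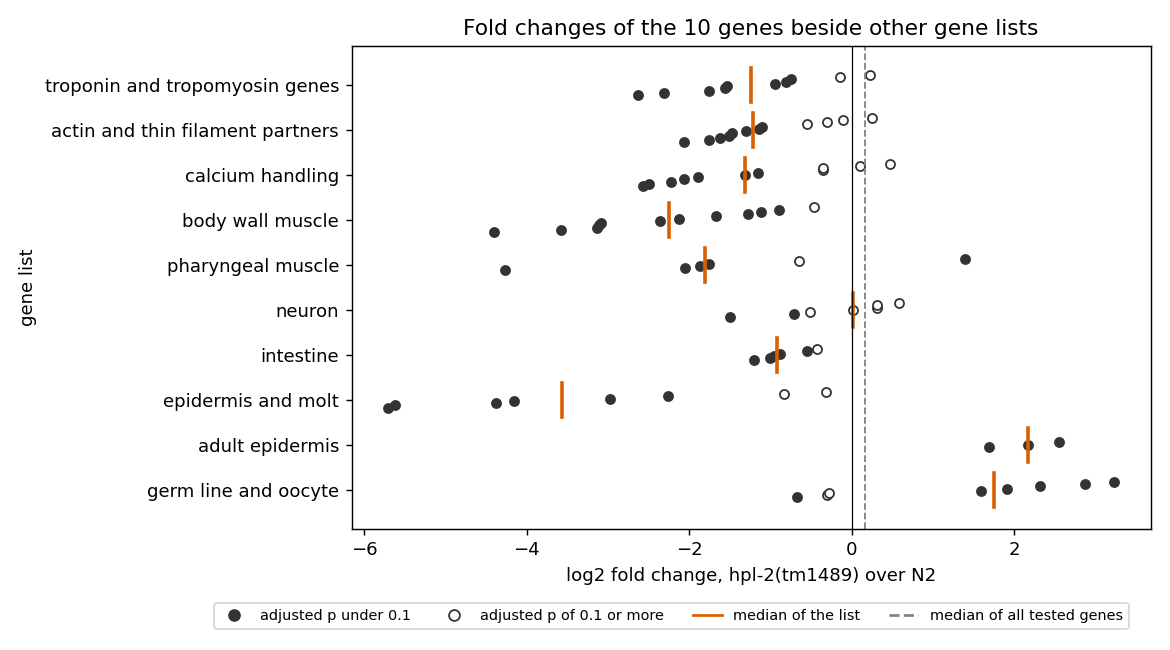
Log2 fold changes in *hpl-2*(*tm1489*) relative to N2 (x axis) of the 10 genes and of the genes of 9 other lists (rows), filled where the adjusted p was under 0.1 and open otherwise, with a vertical bar at each list's median and a dashed line at the median of all tested genes. The median of the 10 genes, at -1.24, lies near those of thin filament partners (-1.22) and calcium handling genes (-1.32) and above that of body wall muscle genes (-2.25).

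Genes that overlap a member limit some counts. In a RefSeq gene table, 4 of the 10 overlap another gene, and whether the counting used the strand of the reads is not given in the sources used here. The partner of *tni-4*, *Y59E9AL.36*, was well covered, at 1909 and 791 counts in N2 and 4294, 2656 and 3986 in *hpl-2*(*tm1489*), and was called higher (log2 fold change 0.80, adjusted p = 0.0791). The partner of *tni-3*, *phy-3*, had 399 to 633 counts per library and was not called, at -0.32, and *clec-143*, the partner of *tnc-2*, had 92 to 195 counts. The noncoding partner of *lev-11* had 0 counts. The other 6 members had no overlap in that table.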

How the data were processed

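Poly(A) libraries of 3 *hpl-2*(*tm1489*) and 2 N2 samples were analyzed; other data types of the study were not used here. After trimming, the authors mapped reads to WS220 using TopHat2 (2.0.14 in the submitters' processing notes), counted uniquely mapped reads per gene with Rsubread, and deposited raw counts. Columns were matched to samples by name.

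Genes were filtered with filterByExpr (minimum count 10), normalized with TMM and tested with edgeR 4.0.16 (R 4.3.3) by robust quasi-likelihood, with Benjamini-Hochberg adjustment over 17498 genes. Standard errors were derived from the F statistic. DESeq2 1.42.0 and other scalings, filters and thresholds were alternatives; scaling to *pmp-3* was added after the data had been seen. The members and lists were chosen with earlier results of these data known. Text names the 10 genes, *tnt-4*, *hpl-2*, up to 3 called genes per direction and list, and the 5 nearest profiles. Uncalled and overlapping genes, *csq-1*, *egl-19* and *unc-120* were picked after their values were seen. The lists' *myo-1* was not analysed here. Gene overlaps and spans came from RefSeq (WBcel235), with spans matched for 97.1% of tested genes; they rest on that assembly's coordinates, not on those of WS220, and none is printed. Libraries of 1 genotype differed by a chi-square of 97.2 or more per degree of freedom, far above sampling noise. No sequence table was at hand.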

Additional observations from a re-analysis of the deposited data

How the results depend on the processing

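The 5 genes *lev-11*, *tni-3*, *tnt-2*, *tnt-3* and *mup-2* kept their direction and their call under all 16 alternatives run, and none of the 10 was called higher in any. The number called lower was 5, these same genes, when an absolute log2 fold change above 1 was asked for (21.2% of all tested genes). It ran from 6 to 9 under the other alternatives that kept both N2 libraries and had no block. The 6 came with library size alone (21.7% of all tested genes lower) and with scaling to *pmp-3* (20.5%). The 9 came with gene span offsets (31.8%). Replicates 1 and 2 occur in both groups. Across genes, deviations from the group means were only weakly, and negatively, correlated between libraries with the same number (r of -0.168 and -0.257). The deviations of 2 N2 libraries mirror each other, so these 2 values cannot decide whether the numbers pair the libraries. With a replicate block, the same 5 genes were called lower, against 19.85% of all tested genes. The calls of *unc-27* (edgeR adjusted p = 0.179), *tni-1* (0.268) and *tni-4* (0.246) were lost. The median log2 fold change of the 10 was -1.56 with upper quartile scaling, -0.97 with library size alone, -1.48 with gene span offsets and -1.42 to -1.02 with each library left out. A fit without an N2 library leaves 1, assumed to vary like the mutant libraries. The median of all genes moved from 0.16 to -0.16 with upper quartile scaling, where 57.5% of changed genes were lower against 44.9%, and to 0.41 with library size alone. Relative to it, the median of the 10 stayed between -1.68 and -1.19. The log2 fold change of *tnc-2* was -0.079 with upper quartile scaling, -0.35 with gene span offsets and -0.043 to 0.42 with a library left out, being negative without *hpl-2*(*tm1489*) replicate 2. That of *pat-10* was 0.14 with library size alone and 0.045 with scaling to *pmp-3*, and it ran from -0.46 to -0.021 with a library left out. The cause was not tested. Shares by coding length were not run. With 2 N2 libraries, the number of libraries limits precision more than the depth of the members, the lowest of which had 815 counts in a library.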
